A study of Mus musculus with 18 samples.

Results

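The first step of natural killer (NK) cell maturation in the mouse spleen was followed in wild-type (WT) mice by setting WT stage III cells, which carry CD27 and CD11b, against WT stage II cells, which carry CD27 without CD11b. The comparison rests on 6 of the 18 RNA-seq libraries of the series, 3 of each stage, and on all 14156 genes that passed the filter on low counts, of 41388 listed. Both groups came from C57BL/6 mice of 8 to 12 weeks, whose pooled splenocytes were sorted by surface CD27 and CD11b, and the number of mice in a pool is not stated. The label of these mice is WT, without further alleles. A treatment of 3 days with tamoxifen is listed for every sample, and whether the WT mice received it is uncertain. WT stage IV cells, which carry CD11b without CD27, and KO cells of stages III and II served for the tests of a difference. The KO mice carried Ncr1-iCreERT2 KI/WT, a Cre recombinase that tamoxifen activates under the NK cell gene Ncr1, together with Rosa26YFPLSL and Eomesfl/fl, and were treated with tamoxifen.

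NK cells are innate lymphocytes that kill infected or transformed cells by releasing perforin and granzymes from granules and that secrete cytokines. In the mouse spleen they mature by gaining CD11b and then losing CD27, along with a gain of cytotoxic proteins and of receptors for leaving lymphoid tissue, and a loss of proliferative capacity and of cytokine receptors of early lymphoid cells. Eomes and T-bet, a pair of T-box transcription factors, govern the programme, and Zeb2 and Blimp-1 act in its later part. The CD27 single-positive gate of the spleen is also known to hold type 1 innate lymphoid cells (ILC1), close relatives of NK cells, unless these are gated out by other proteins.

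The WT stage III libraries held 21681639 to 28365837 counts each and the WT stage II libraries 19409764 to 21789075. WT stage II replicate 1 stood apart: 29859 genes had a count in it, and 10135 of them had 1 to 5 counts, against 17957 to 21556 genes with a count in the other 5 libraries. Replicate 1 also differed from replicates 2 and 3 in both stages. Xist, the RNA of the inactive X chromosome, had 34.3, 0.144 and 0.489 CPM in stage III replicates 1, 2 and 3, against 39.7, 0.287 and 0 CPM in stage II. Ncr1 had 2041, 3877 and 3657 CPM in stage III and 2089, 3747 and 3572 CPM in stage II, so that replicate 1 was lowest in both. The 22 immediate early and stress genes summed to 4512, 9822 and 12287 CPM in stage III and to 3739, 8392 and 10332 CPM in stage II. Since each replicate number holds 1 library of either stage, these differences are shared by the stages and add to the spread within each. The labels name 3 experiments without saying which replicate belongs to which, so the spread between replicates may be partly technical. The p-values rest on the spread within groups over all 18 libraries in the fit. The KO libraries thus enter that spread beside the WT libraries compared here. Levels below are CPM computed with library sizes scaled by edgeR (trimmed mean of M values), listed in the order of replicates 1, 2 and 3. Adjusted p-values are from edgeR's quasi-likelihood test with adjustment over all 14156 genes, and a gene was called at an adjusted p under 0.05.

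More genes were lower than higher in stage III, and the losses were the steeper changes. Of 14156 tested genes 420 were called (2.97%), of which 140 were higher in stage III (0.989%) and 280 were lower in stage III (1.98%). The gains were modest, with a median log2 fold change of 0.84, and none reached 16-fold. The losses were steep, with a median log2 fold change of -2.24, and 67 genes were called at least 16-fold lower. Among called genes 49 were at least 2-fold higher (0.346%) and 222 at least 2-fold lower (1.57%). The higher genes had a median of 76.8 CPM in stage III against 39.2 CPM in stage II. The lower genes had a median of 3.03 CPM in stage III against 16.8 CPM in stage II, and 96 of them averaged under 1 CPM in stage III. In 8 of them no stage III library held a count, and the median was also -2.24 with these set to a floor of 3 counts over the group. All 140 higher and all 280 lower genes had stage groups that did not overlap, which was so for 12.1% of tested genes in the higher direction and 13.2% in the lower direction. In these bulk samples fewer cells of a type and less RNA per cell cannot be told apart.

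**Figure D1:**
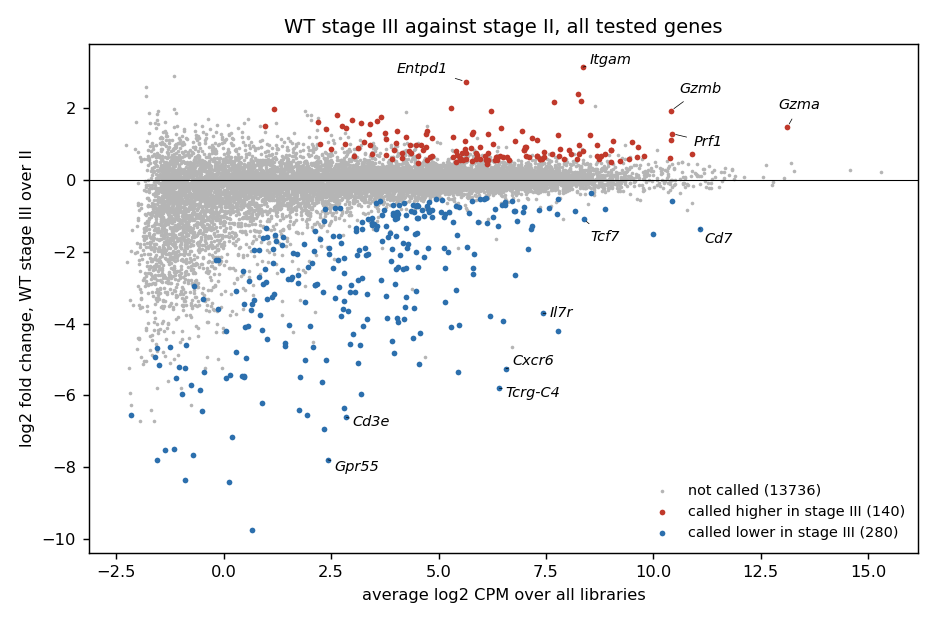
Log2 fold change of WT stage III over stage II (vertical axis) against the average log2 CPM over all libraries (horizontal axis) for 14156 tested genes, one point each. The 140 called higher genes (red) stay below 16-fold, while 67 of the 280 called lower genes (blue) are at least 16-fold lower.

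The number of calls moved with the samples in the fit. With the 9 WT libraries alone, 1144 of 13062 genes were called (8.76%), 532 higher (4.07%) and 612 lower (4.69%), and these included 413 of the 414 original calls that were tested there. With the replicate number as a block within each genotype, 563 genes were called (3.98%), 224 higher (1.58%) and 339 lower (2.39%), and with the block in the 9 WT libraries 2533 (19.4%), 1303 higher (9.98%) and 1230 lower (9.42%). The block was fitted because same-numbered WT libraries of stages II and III deviated together. This was weaker in some pairs with stage IV and did not hold for every KO pair. The last of these fits was chosen after seeing the data. Leaving out any 1 of the 6 libraries gave 204 to 277 calls: 247, 204 and 211 without stage III replicates 1, 2 and 3, and 268, 277 and 258 without stage II replicates 1, 2 and 3. More genes were lower than higher in each of these fits other than the block fit of the 9 WT libraries.

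The genes used in the sort followed the gates and serve only as a check. Itgam, which encodes CD11b and lies on chromosome 7, 128062640 to 128128160 of GRCm38, had 454, 440.1 and 396 CPM in stage III against 53.7, 50.3 and 40.8 CPM in stage II, a log2 fold change of 3.15 ± 0.34 (SE). Cd27 had 385, 393 and 365 CPM in stage III against 369.8, 448 and 420.2 CPM in stage II, with overlapping groups and an adjusted p of 0.964. Both gates take CD27-positive cells.

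Beside Itgam, the highest fold changes included cell surface enzymes and receptors and granule proteases. Entpd1, the ectonucleotidase CD39 that breaks down extracellular ATP and ADP, had 37.8, 30.7 and 25.4 CPM in stage III against 7.52, 2.39 and 3.96 CPM in stage II, 6.73-fold higher (log2 2.75 ± 0.33, adjusted p = 7.69e-05). Cma1, a chymase known from mast cell granules, had 205, 209 and 200.2 CPM in stage III against 40.9, 36.3 and 38 CPM in stage II, 5.32-fold higher (log2 2.41 ± 0.38, adjusted p = 0.00129). Klrg1, an inhibitory receptor for cadherins and a classical marker of mature NK cells, had 214, 183 and 153 CPM in stage III against 45.4, 36.1 and 36.5 CPM in stage II, 4.65-fold higher (log2 2.22 ± 0.26, adjusted p = 5.22e-05). Stages that do not overlap were a condition for choosing these genes, and Entpd1 was the most variable of the 3 within stage II.

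Serpinb9b, a serpin related to the granzyme B inhibitor Serpinb9, had 238, 275 and 261 CPM in stage III against 36.1, 67.4 and 67.1 CPM in stage II (4.53-fold, adjusted p = 1.16e-04). Fcgr2b, the inhibitory Fc receptor for IgG, had 70.4, 87.1 and 95.8 CPM in stage III against 16.9, 24 and 25 CPM in stage II (3.84-fold, adjusted p = 2.53e-05). Cmklr1, the receptor for the attractant chemerin, had 12.9, 10.2 and 10.6 CPM in stage III against 3.35, 3.25 and 3.33 CPM in stage II (3.39-fold, adjusted p = 0.001). In all 3 genes the lowest stage III library was well above the highest stage II library, although stages that do not overlap were a condition for their choice. Cdc20b, a relative of the mitotic activator Cdc20, had 16.4, 16.8 and 18.1 CPM in stage III against 5.12, 3.59 and 3.87 CPM in stage II (4.06-fold, adjusted p = 3.72e-05). Cdc20b ends at 113091195 on the plus strand of chromosome 13, near the far more abundant Gzma at 113093825 to 113100979 on the minus strand. Whether reads from Gzma were counted in Cdc20b was not tested. Khdc1a, of a KH-domain family known from oocytes, had 11.9, 15 and 8.95 CPM in stage III against 3.67, 3.54 and 2.93 CPM in stage II (3.53-fold, adjusted p = 0.00146). Its neighbour Gm16329, a predicted gene, had 4.73, 4.35 and 4.02 CPM in stage III against 1.31, 1.15 and 0.855 CPM in stage II (3.93-fold, adjusted p = 0.0365). Khdc1a and Gm16329 lie on the plus strand of chromosome 1 of GRCm38, from 21349641 to 21352200 and from 21354005 to 21355116, in a family of similar copies among which reads may be shared. Fam129b, a cytoplasmic protein also called Niban2, had 13.3, 13.5 and 9.63 CPM in stage III against 5.62, 2.87 and 2.84 CPM in stage II (3.21-fold, adjusted p = 0.0195). Gm16329 was not called when any 1 of the 6 libraries was left out (adjusted p 0.0911 to 0.161). Fam129b was not called without stage II replicate 2, stage II replicate 3, stage III replicate 1 or stage III replicate 2 (adjusted p 0.0583 to 0.0922).

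**Figure D2:**
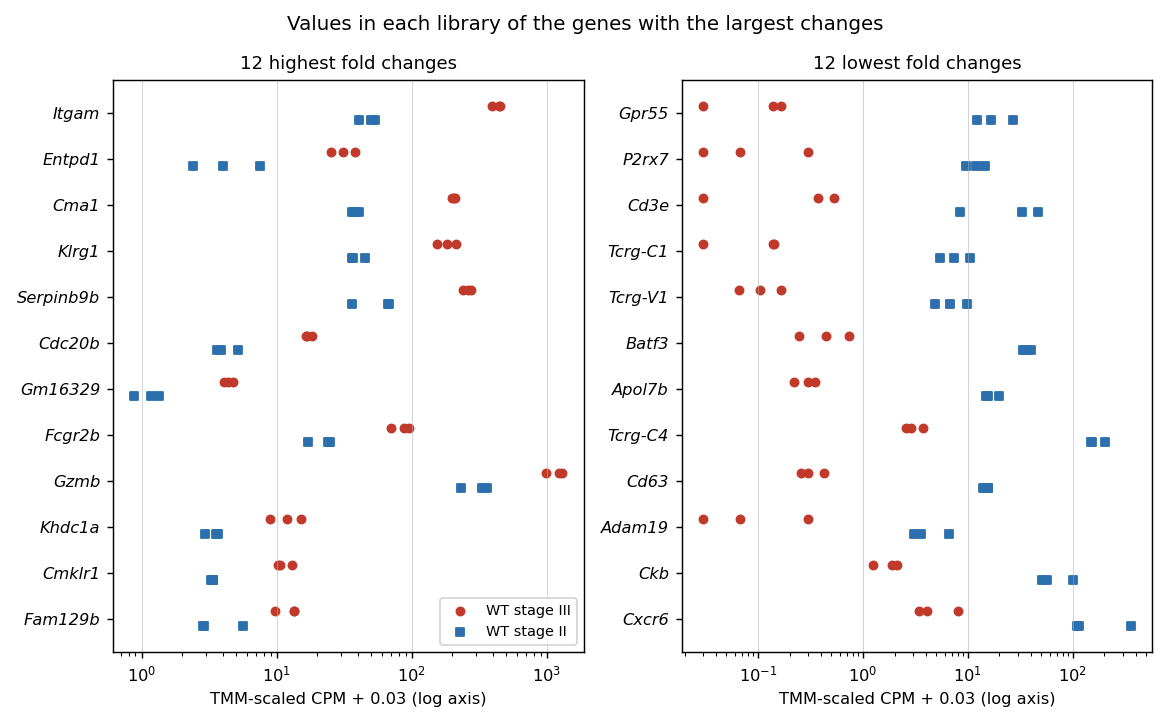
Scaled CPM in each library (horizontal log axis, 0.03 CPM added so that 0 can be drawn) of the 12 highest (left) and 12 lowest (right) fold changes, with WT stage III (red circles) drawn above WT stage II (blue squares) for each gene. The stages do not overlap for any of these genes, which was a condition for their choice. In the right panel the stage III values sit between 0 and 7.94 CPM.

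The steepest losses left almost no transcript in stage III. Gpr55, a G-protein-coupled receptor for lysophosphatidylinositol, had 0.134, 0.108 and 0 CPM in stage III against 27, 16.4 and 12.3 CPM in stage II. P2rx7, the ion channel opened by extracellular ATP, had 0.268, 0 and 0.0376 CPM in stage III against 14.6, 12 and 9.54 CPM in stage II. Batf3, a leucine zipper transcription factor best known from dendritic cells, had 0.714, 0.216 and 0.414 CPM in stage III against 33.5, 35.5 and 39.5 CPM in stage II. Stage III libraries held a handful of reads of these genes: the ratio of summed counts, stage II over stage III after scaling, was 239 (95% exact interval 109 to 651) for Gpr55, 132 (95% exact interval 63.9 to 329.9) for P2rx7 and 84.3 (95% exact interval 59.9 to 123) for Batf3, where the intervals cover counting error alone. Their fitted log2 fold changes were -7.80 ± 0.91, -6.94 ± 0.86 and -6.35 ± 0.73, with adjusted p-values of 5.35e-05, 1.04e-04 and 5.03e-05.

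T cell receptor components formed the next group. Cd3e, the epsilon chain of CD3, had 0, 0.503 and 0.339 CPM in stage III against 8.33, 46.4 and 32.9 CPM in stage II (log2 -6.62, adjusted p = 7.75e-04), and the ratio of scaled summed counts, stage II over stage III, was 96.6 (95% exact interval 64.2 to 153). Tcrg-C4, a constant segment of the T cell receptor gamma chain on chromosome 13, 19342186 to 19352343, had 3.7, 2.87 and 2.52 CPM in stage III against 203, 154 and 148 CPM in stage II (log2 -5.80 ± 0.28, adjusted p = 3.64e-09). The low Cd3e value of stage II replicate 1 was still above every stage III value, as the choice of these genes required. Tcrg-C1, another constant segment, had 0, 0.108 and 0.113 CPM in stage III against 5.43, 7.42 and 10.4 CPM in stage II (log2 -6.55 ± 0.66). The variable segment Tcrg-V1 had 0.134, 0.0359 and 0.0752 CPM in stage III against 9.69, 6.79 and 4.82 CPM in stage II (log2 -6.40 ± 0.75). The files list 10 Tcrg genes, a group chosen after these values were seen, and together they summed to 3.92, 3.09 and 2.78 CPM in stage III against 226, 179 and 174 CPM in stage II. Of the 7 that were tested, 6 were called lower. The constant segments resemble each other, so the share of each is uncertain.

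The other steep losses were of membrane and metabolic proteins. Cxcr6, the receptor for the chemokine CXCL16, had 7.94, 4.02 and 3.42 CPM in stage III against 359, 115 and 109 CPM in stage II (log2 -5.26 ± 0.54, adjusted p = 1.36e-05). Ckb, the brain form of creatine kinase, had 1.87, 1.22 and 2.07 CPM in stage III against 101, 50.7 and 56.9 CPM in stage II (log2 -5.34 ± 0.45, adjusted p = 1.53e-06). Both were highest in stage II replicate 1. Cd63, a tetraspanin of late endosomes and granules, had 0.268, 0.395 and 0.226 CPM in stage III against 15.6, 15.6 and 13.8 CPM in stage II (log2 -5.63 ± 0.65, adjusted p = 4.87e-05). Apol7b, of the apolipoprotein L family, had 0.268, 0.323 and 0.188 CPM in stage III against 19.6, 14.7 and 15.5 CPM in stage II (log2 -5.97 ± 0.43, adjusted p = 3.05e-07). Adam19, a membrane-bound metalloprotease, had 0.268, 0 and 0.0376 CPM in stage III against 6.61, 3.54 and 3.06 CPM in stage II (log2 -5.48 ± 0.97, adjusted p = 0.00319).

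Promoter windows of genes at both ends were read for short motifs, as a description. RefSeq windows of GRCm38.p6, from 250 bases before to 50 after a start site, were found for 112 of 140 higher genes, 194 of 279 lower genes with distinct symbols and 10197 of 14061 tested ones. TGTGGT, the core letters bound by Runx factors, searched on both strands, stood in 18.2% of the windows of higher genes, 21.4% of those of lower genes and 13.5% of those of all tested genes. Of the 24 highest and lowest genes 17 had a window, and 4 held these letters within the 250 bases before a start site. The upstream stretches of 1 gene that rose and 2 that fell are shown here 5′ to 3′ on the strand of the gene, with TGTGGT or its complement ACCACA in capitals, since they show the same letters on either side of the comparison. Gzmb is chr14:56262335-56262584, minus strand, Cxcr6 is chr9:123806227-123806476, plus strand and Gpr55 is chr1:85961056-85961305, minus strand.
Gzmb: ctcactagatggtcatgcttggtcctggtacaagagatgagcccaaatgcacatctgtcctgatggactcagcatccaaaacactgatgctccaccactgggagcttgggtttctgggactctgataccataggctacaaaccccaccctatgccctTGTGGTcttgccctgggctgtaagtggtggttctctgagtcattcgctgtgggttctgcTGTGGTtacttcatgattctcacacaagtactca
Cxcr6: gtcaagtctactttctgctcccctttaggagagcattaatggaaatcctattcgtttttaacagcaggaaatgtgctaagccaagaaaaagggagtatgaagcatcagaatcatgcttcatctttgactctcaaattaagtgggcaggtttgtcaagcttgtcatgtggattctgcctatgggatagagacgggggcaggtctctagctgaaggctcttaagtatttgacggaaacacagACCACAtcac
Gpr55: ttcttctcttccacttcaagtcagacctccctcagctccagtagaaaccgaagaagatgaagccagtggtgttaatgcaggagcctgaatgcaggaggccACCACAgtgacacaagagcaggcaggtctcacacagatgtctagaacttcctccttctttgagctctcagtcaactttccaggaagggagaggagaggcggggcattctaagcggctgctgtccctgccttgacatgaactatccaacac
The Gzmb stretch holds the letters at 93 and at 34 bases before the start site, the Cxcr6 stretch at 10 bases and the Gpr55 stretch at 150 bases. Among the other motifs, GGTGTGA, letters of a T-box site, stood in 2.6% of higher, 3.1% of lower and 3.4% of all windows. CAGGTG, an E-box bound by Zeb factors, stood in 20.8%, 21.8% and 18.2%. CCAAT, the NF-Y box, stood in 33.1%, 29.8% and 37.8%, and TTGGCGC, an E2F site, in 3.2%, 0.8% and 4.0%. TTTGAA, of the cell cycle homology region, stood in 13.0%, 14.5% and 12.5%, always in the order higher, lower and all. Matches on either strand were counted, and matches of different motifs may overlap.

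Perforin and granzymes A and B rose. Of 19 granule effector genes, 5 were called higher and 2 lower, with a median log2 fold change of 0.35 against -0.02 over all tested genes. Over all tested genes 0.989% were called higher and 1.98% lower, and the counts of every list below stand beside these shares. The shares were 4.07% and 4.69% in the 9 WT libraries alone, and 1.58% and 2.39% with the block. Gzma, the tryptase of NK granules, had 10886, 8804 and 8317 CPM in stage III against 3062, 3588 and 3389 CPM in stage II (2.79-fold, log2 1.48 ± 0.24, adjusted p = 0.00169). Gzmb, the granzyme that cleaves caspases, had 982, 1233 and 1304 CPM in stage III against 229.9, 330.4 and 359.9 CPM in stage II (3.82-fold, log2 1.93 ± 0.26, adjusted p = 2.41e-04). Prf1, the pore-forming perforin, had 1544, 1691 and 1572 CPM in stage III against 593, 689 and 673 CPM in stage II (2.45-fold, log2 1.30 ± 0.19, adjusted p = 7.16e-04). Gzma was highest in replicate 1 of stage III, Gzmb was lowest there, and each stage III library stood above each stage II library for the 3 genes. Serpinb9, which protects the cell from its own granzyme B, had 603, 719 and 698 CPM in stage III against 281, 434 and 414 CPM in stage II (log2 0.84 ± 0.17). Stx11, a syntaxin needed for granule release, had 33.9, 32.7 and 33.2 CPM in stage III against 20.2, 21.3 and 21.7 CPM in stage II (log2 0.66 ± 0.13). Serpinb9 was not called without stage II replicate 1, stage III replicate 2 or stage III replicate 3 (adjusted p 0.0623 to 0.0763).

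Of this list 2 members fell. Tnfsf10, the death ligand TRAIL, had 11.3, 7.69 and 7.07 CPM in stage III against 48.5, 32.2 and 34.2 CPM in stage II (log2 -2.15 ± 0.20, adjusted p = 4.94e-06). Gzmm, granzyme M, had 28.4, 42 and 40.8 CPM in stage III against 61.5, 75.9 and 68.3 CPM in stage II (log2 -0.89 ± 0.23, adjusted p = 0.0496), and it was not called when any 1 of the 6 libraries was left out (adjusted p 0.0872 to 0.337). Nkg7, a granule membrane protein, had 9215, 8859 and 8324 CPM in stage III against 5971, 6767 and 6243 CPM in stage II and was called in the 9 WT libraries alone (adjusted p = 0.00362) but not in all 18 (adjusted p = 0.429). Without stage II replicate 1, 4 effectors were called higher and 1 lower.

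No secreted cytokine was called higher in all 18 libraries, and 3 of 10 tested members of that list were called lower. The median log2 fold change of the 10 was -0.13, with 5 above 0 and 5 below. With the block 1 was called higher and 3 lower. With the block in the 9 WT libraries 4 were higher and 4 lower, against 9.98% and 9.42% of all tested genes. Lta, lymphotoxin alpha, had 1.43, 1.65 and 0.79 CPM in stage III against 21.8, 18.9 and 16 CPM in stage II (log2 -3.87 ± 0.43, adjusted p = 3.72e-05). Tnf, the tumour necrosis factor, had 3.39, 8.44 and 6.84 CPM in stage III against 22.3, 28.9 and 28.9 CPM in stage II (log2 -2.10 ± 0.37, adjusted p = 0.0032). Csf2, the growth factor GM-CSF, had 7.09, 13.3 and 12.1 CPM in stage III against 26.6, 33.3 and 23.1 CPM in stage II (log2 -1.35 ± 0.27, adjusted p = 0.00927). The stages did not overlap for any of the 3, although Csf2 was not called without stage II replicate 2 or stage III replicate 1 (adjusted p 0.0813 to 0.0822). Ifng, the cytokine NK cells are best known for, had 431, 844 and 873 CPM in stage III against 278, 605 and 587 CPM in stage II, with overlapping groups, a higher stage III value in all 3 replicate pairs and an adjusted p of 0.74 (0.0136 with the block). Lta and Tnf are neighbours on chromosome 17.

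Of 24 tested receptors outside the Ly49 family, 6 were called lower and none higher, with a median log2 fold change of -0.31, and 3 higher and 8 lower were called in the 9 WT libraries alone. With the block, 2 were higher and 8 lower. Cd160, a receptor for HVEM and MHC class I, had 599, 589.6 and 544 CPM in stage III against 1841, 1518 and 1536 CPM in stage II (log2 -1.50 ± 0.20, adjusted p = 2.41e-04). Lag3, an inhibitory receptor for MHC class II, had 7.09, 4.71 and 3.87 CPM in stage III against 29.7, 28.2 and 25.2 CPM in stage II (log2 -2.41 ± 0.40, adjusted p = 0.00162). Cd226, the activating receptor DNAM-1, had 59, 95.7 and 91.5 CPM in stage III against 191, 217 and 223 CPM in stage II (log2 -1.36 ± 0.25, adjusted p = 0.0042). Crtam, a receptor for the nectin-like protein Cadm1, had 76.3, 95.5 and 86.5 CPM in stage III against 155, 203 and 170.4 CPM in stage II (log2 -1.04 ± 0.19, adjusted p = 0.00457), and it was not called without stage III replicate 1 (adjusted p 0.0539). The other 2 called members were Klrb1b, with a log2 fold change of -0.86 ± 0.13, and Cd96, with -0.51 ± 0.11. Cd96 was not called when any library other than stage II replicate 1 was left out (adjusted p 0.108 to 0.24).

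Among 12 tested Ly49 genes, which encode receptors for MHC class I, 1 was called higher and none lower. Klra9 had 382, 455 and 460.1 CPM in stage III against 213, 251 and 257 CPM in stage II (log2 0.85 ± 0.20, adjusted p = 0.0227), and it was not called when any library other than stage III replicate 1 was left out (adjusted p 0.0646 to 0.124). In the 9 WT libraries alone 4 were called higher and 1 lower, with the block 2 higher, and without stage II replicate 1 none. Ly49 genes are near-identical copies, so their counts may be split between members. Of 22 tested adaptors and kinases below these receptors, only Plcg1, phospholipase C gamma 1, was called. Plcg1 had 0.446, 0.719 and 1.09 CPM in stage III against 3.26, 2.78 and 1.94 CPM in stage II (log2 -1.81 ± 0.42, adjusted p = 0.025), and it was not called without stage II replicate 1, stage II replicate 2, stage III replicate 1 or stage III replicate 2 (adjusted p 0.0903 to 0.152). The median log2 fold change of the 22 was 0.04, and with the block 1 was called higher and 1 lower.

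Several transcription factors of early NK cells fell. Of 19 tested members 6 were called lower and none higher, and the same number was called lower without stage II replicate 1. The median log2 fold change of the list was -0.08, with 9 members above 0 and 10 below. Rora and Ikzf2 also stand on the list of ILC1 markers. Beside Batf3, Id3, an inhibitor of E proteins, had 2.01, 1.8 and 1.65 CPM in stage III against 75.9, 61.8 and 54.1 CPM in stage II (log2 -5.14 ± 0.30, adjusted p = 3.03e-08). Rora, a nuclear receptor required by ILC2, had 10.4, 14.2 and 17.5 CPM in stage III against 52.9, 47.7 and 54.8 CPM in stage II (log2 -1.88 ± 0.26, adjusted p = 2.57e-04). Ikzf2, the zinc finger factor Helios, had 18.9, 18.8 and 17.1 CPM in stage III against 75, 62.6 and 62.2 CPM in stage II (log2 -1.87 ± 0.13, adjusted p = 3.05e-07). Id3 was nearly gone in stage III, while Rora and Ikzf2 stayed above 10 CPM in every library. Tcf7, which encodes TCF-1, a factor of early lymphoid and stem-like cells, had 251, 273 and 265 CPM in stage III against 497, 589 and 587 CPM in stage II (log2 -1.09 ± 0.18, adjusted p = 0.00195). Bcl11b, a T cell lineage factor, had a log2 fold change of -1.77 ± 0.29.

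Several transcription factors of mature NK cells rose, 5 of 19 tested being called higher and 1 lower, with a median log2 fold change of 0.15. Prdm1, which encodes Blimp-1, had 71.7, 87.6 and 109 CPM in stage III against 29, 37 and 44.1 CPM in stage II (2.43-fold, log2 1.28 ± 0.20, adjusted p = 8.73e-04). Zeb2, a repressor required for late NK maturation, had 155, 157 and 176 CPM in stage III against 57.1, 63.5 and 82.7 CPM in stage II (2.39-fold, log2 1.26 ± 0.26, adjusted p = 0.00954). Irf8, of the interferon regulatory factor family, had 415, 485 and 436 CPM in stage III against 203, 248 and 227 CPM in stage II (1.97-fold, log2 0.98 ± 0.20, adjusted p = 0.0109). Prdm1 and Zeb2 were highest in replicate 3 of each stage. Klf12, a Krüppel-like factor, had 7.45, 7.73 and 9.93 CPM in stage III against 2.08, 2.78 and 4.23 CPM in stage II (log2 1.46 ± 0.30), and Runx1 had a log2 fold change of 0.55 ± 0.14. The member that fell was Zfp683, which encodes Hobit, a factor of tissue-resident lymphocytes. It had 0.535, 0.108 and 0.339 CPM in stage III against 7.97, 6.55 and 8.73 CPM in stage II (log2 -4.59 ± 0.36, adjusted p = 7.90e-07). Without stage II replicate 1, 1 member was called higher and 1 lower. Zeb2 was not called without stage II replicate 1, stage II replicate 2 or stage III replicate 3 (adjusted p 0.0504 to 0.0672). Irf8 was not called without stage II replicate 1 or stage III replicate 2 (adjusted p 0.0704 to 0.0748). Klf12 was not called without stage II replicate 1, stage II replicate 2 or stage III replicate 3 (adjusted p 0.059 to 0.0748), and Runx1 was not called when any library other than stage III replicate 1 was left out (adjusted p 0.0503 to 0.28).

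The T-box factors and other regulators were not called. Eomes had 278, 255 and 282 CPM in stage III against 168, 207 and 209 CPM in stage II (log2 0.48 ± 0.15, adjusted p = 0.105), and in the 9 WT libraries alone its adjusted p was 0.0112 (0.0964 with the block in all 18). Tbx21, which encodes T-bet, had 152, 139.9 and 128 CPM in stage III against 127, 114 and 87.8 CPM in stage II (log2 0.35 ± 0.20, adjusted p = 0.621). The stages did not overlap for either gene. Klf2, a factor of quiescence and homing, had 173, 374 and 522 CPM in stage III against 95.2, 227 and 298 CPM in stage II, with overlapping groups but a higher stage III value in all 3 replicate pairs (adjusted p = 0.512, and 0.0162 with the block).

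Trafficking receptors changed in both directions. Of 25 tested trafficking receptors 5 were called higher and 2 lower, with a median log2 fold change of 0.31, and in the 9 WT libraries alone 11 were higher and 4 lower. With the block, 8 were higher and 4 lower, and without stage II replicate 1, 4 and 2. S1pr5, the sphingosine-1-phosphate receptor by which NK cells leave bone marrow and lymph nodes, had 115, 109.9 and 119.6 CPM in stage III against 51.2, 47.3 and 53.3 CPM in stage II (2.27-fold, log2 1.18 ± 0.14, adjusted p = 4.79e-05). S1pr1, the related receptor used by T and B cells for egress, had 189, 189 and 199.7 CPM in stage III against 69, 103 and 98.6 CPM in stage II (2.13-fold, log2 1.09 ± 0.19, adjusted p = 0.00275). Ccr2, the receptor for the chemokine CCL2, had 1471, 1404 and 1365 CPM in stage III against 868, 1018 and 945 CPM in stage II (1.49-fold, log2 0.58 ± 0.11, adjusted p = 0.00715). The sphingosine-1-phosphate receptors both rose by about the same fold. Spn, the sialomucin CD43, had 495, 469.5 and 439 CPM in stage III against 275, 292 and 281 CPM in stage II (log2 0.73 ± 0.12, adjusted p = 0.00184). Itgae, the integrin chain CD103, had 9.68, 10.4 and 10.2 CPM in stage III against 4.17, 6.7 and 4.32 CPM in stage II (log2 0.99 ± 0.22), and it was not called when any library other than stage II replicate 2 was left out (adjusted p 0.0511 to 0.111). Beside Cxcr6, the member that fell was Itga1, the collagen-binding integrin chain CD49a. Itga1 had 2.68, 1.87 and 2.07 CPM in stage III against 11.2, 6.75 and 6.48 CPM in stage II (log2 -1.89 ± 0.32, adjusted p = 0.00225).

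Of 32 tested genes of the actin and migration machinery, 8 were called higher and 1 lower. S100a6, a calcium-binding protein, had 301, 271 and 271 CPM in stage III against 119, 115 and 114 CPM in stage II (log2 1.27 ± 0.20, adjusted p = 9.05e-04). Lgals1, galectin-1, had 1271, 1403 and 1344 CPM in stage III against 444, 726 and 671 CPM in stage II (log2 1.12 ± 0.23, adjusted p = 0.00901). Anxa1, an annexin that binds membranes with calcium, had 712, 910.3 and 936 CPM in stage III against 281, 449 and 472 CPM in stage II (log2 1.09 ± 0.21, adjusted p = 0.00558). For Lgals1 and Anxa1, replicate 1 was lowest in both stages. Ahnak, a large scaffold protein that binds annexin 2, had 953, 1041 and 889 CPM in stage III against 439, 534 and 398 CPM in stage II (log2 1.07 ± 0.25). Anxa2, annexin 2, had 2239, 2766 and 2634 CPM in stage III against 1054, 1852 and 1711 CPM in stage II (log2 0.72 ± 0.18). The other called members that rose were the filament protein Vim, the actin crosslinker Flna and the actin Actg1, with log2 fold changes of 0.91, 0.67 and 0.72. S100a4, which lies beside S100a6 on chromosome 3, went the other way, with 8.07, 8.62 and 9.21 CPM in stage III against 14.3, 13.9 and 14.2 CPM in stage II (log2 -0.71 ± 0.18). Without stage II replicate 1, 3 members were called higher and none lower. Ahnak was not called when any library other than stage II replicate 2 was left out (adjusted p 0.0647 to 0.121), and S100a4 was not called when any 1 of the 6 libraries was left out (adjusted p 0.103 to 0.225). Anxa2 was not called when any library other than stage II replicate 2 was left out (adjusted p 0.0534 to 0.186), and Lgals1 was not called without stage II replicate 1 or stage III replicate 2 (adjusted p 0.0541 to 0.059). Vim was not called without stage III replicate 2 or stage III replicate 3 (adjusted p 0.0553 to 0.0562), Flna was not called without stage II replicate 1, stage III replicate 1, stage III replicate 2 or stage III replicate 3 (adjusted p 0.0589 to 0.127), and Actg1 was not called when any 1 of the 6 libraries was left out (adjusted p 0.088 to 0.255).

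Il7r, Il2ra and Kit were lower in stage III. Il7r, the alpha chain of the IL-7 receptor, had 20.2, 19 and 28.7 CPM in stage III against 374, 245 and 270.4 CPM in stage II (13.1-fold lower, log2 -3.71 ± 0.31, adjusted p = 1.51e-06). Il2ra, the high-affinity chain CD25 of the IL-2 receptor, had 2.05, 2.52 and 1.47 CPM in stage III against 40.4, 26.4 and 20 CPM in stage II (14.4-fold lower, log2 -3.85 ± 0.36, adjusted p = 5.60e-06). Kit, the receptor for stem cell factor, had 56.9, 85.8 and 88.6 CPM in stage III against 297, 275 and 294 CPM in stage II (3.75-fold lower, log2 -1.91 ± 0.35, adjusted p = 0.00458). Kit was still plainly present in stage III, at 56.9 CPM or more. Cish, a feedback inhibitor of IL-2 and IL-15 signalling, had 9.23, 11.8 and 8.09 CPM in stage III against 21.1, 20.1 and 19.4 CPM in stage II (log2 -1.06 ± 0.18, adjusted p = 0.00242). Il2ra and Cish were the 2 genes called among 18 of IL-2 and IL-15 signalling, whose median log2 fold change was -0.04. Il2rb, the chain shared by the IL-2 and IL-15 receptors, had 3219, 3262 and 2561 CPM in stage III against 3422, 3029 and 1909.7 CPM in stage II, with overlapping groups. Il18r1, a chain of the IL-18 receptor, rose, with 334, 337 and 368 CPM in stage III against 184, 213 and 233 CPM in stage II (log2 0.72 ± 0.17, adjusted p = 0.028), and it was not called when any library other than stage II replicate 3 was left out (adjusted p 0.0757 to 0.157). Ifngr1, a chain of the interferon gamma receptor and among the most abundant genes called higher, had 1353, 1399 and 1419.5 CPM in stage III against 808, 943 and 961 CPM in stage II (log2 0.62 ± 0.11, adjusted p = 0.0038).

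Of 20 immature NK markers 10 were called lower and 1 higher (Il18r1), with a median log2 fold change of -1.01. Of 18 mature NK markers 8 were called higher and none lower, with a median of 0.72. Without stage II replicate 1 the counts were 9 lower for the immature list and 6 higher for the mature list. Cd7, an early marker of T and NK lineages and the most abundant gene called lower, had 1338, 1331 and 1246 CPM in stage III against 3652, 3256 and 3069 CPM in stage II (2.55-fold lower, log2 -1.35 ± 0.18, adjusted p = 2.37e-04). Cd200r1, an inhibitory receptor for CD200, had 3.43, 3.77 and 3.05 CPM in stage III against 69, 57.3 and 47.7 CPM in stage II (log2 -4.09 ± 0.44, adjusted p = 2.53e-05). Cx3cr1, a chemokine receptor of fully mature NK cells, had 9.94, 3.2 and 3.46 CPM in stage III against 5.57, 2.58 and 1.85 CPM in stage II and was not called (adjusted p = 0.847). Among the immature markers, the stem cell antigen Ly6a and Cd93, a receptor of early haematopoietic cells, had log2 fold changes of -1.43 ± 0.25 and -2.93 ± 0.47. Car2, Serpina3g and Saraf, 3 other abundant genes called lower, changed by less than 2-fold. Car2, carbonic anhydrase 2, had 1331, 1244 and 1156 CPM in stage III against 1893, 1869 and 1828 CPM in stage II (log2 -0.59 ± 0.14). Serpina3g, a serpin of activated lymphocytes, had 389, 396 and 329.6 CPM in stage III against 676, 671 and 577 CPM in stage II (log2 -0.79 ± 0.13). Saraf, a regulator of store-operated calcium entry, had 335, 331 and 337 CPM in stage III against 418, 424 and 436 CPM in stage II (log2 -0.35 ± 0.09). Car2 was not called when any 1 of the 6 libraries was left out (adjusted p 0.0872 to 0.24), and Saraf was not called when any 1 of the 6 libraries was left out (adjusted p 0.0987 to 0.385).

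Survival, signalling and housekeeping lists held few calls, beside 2.97% called over all tested genes. Of 23 tested BCL-2 family and death receptor genes 2 were called lower, Bcl2a1d (log2 -2.91 ± 0.41, adjusted p = 3.43e-04) and Bcl2a1b (log2 -1.63 ± 0.36, adjusted p = 0.0172), which are near-identical copies of the survival gene A1. Bcl2a1d had 0.446, 0.791 and 1.02 CPM in stage III against 6.34, 6.17 and 4.59 CPM in stage II. Bcl2a1b was not called without stage II replicate 2, stage II replicate 3, stage III replicate 1 or stage III replicate 2 (adjusted p 0.0737 to 0.119). Of 22 interferon response genes only Oas1a, which makes the messenger that activates RNase L, was called. Oas1a had 22.8, 14.5 and 12.4 CPM in stage III against 34.5, 27.6 and 27.3 CPM in stage II (log2 -0.85 ± 0.22, adjusted p = 0.0486), and it was not called when any library other than stage III replicate 1 was left out (adjusted p 0.115 to 0.341). In all 18 libraries none was called of 15 TGF-beta pathway genes, 17 glycolysis genes, 20 nuclear-encoded respiratory chain genes or 22 immediate early and stress genes. In lists this short, no call is close to the share over all tested genes. At an unadjusted p under 0.05 these lists held 2, 3, 0 and 1 genes, and DESeq2 called none of them. In the 9 WT libraries with the block, 8 immediate early and stress genes were called higher and none lower, and their median log2 ratio within replicate pairs was 0.19, 0.20 and 0.29. That fit also called 3 TGF-beta pathway genes higher and 1 lower, 2 glycolysis genes higher and 3 lower, and 1 respiratory chain gene lower. Over all tested genes that fit called 9.98% higher and 9.42% lower. In the 9 WT libraries without the block the calls were 1 glycolysis gene higher and 1 lower, against 4.07% and 4.69% of all tested genes. With the block in all 18 libraries, 1 interferon response gene was called higher and 3 lower, against 1.58% and 2.39% of all tested genes. Gapdh, a glycolysis gene with many processed copies in the genome, had 9.28, 11.9 and 13.2 CPM in stage III against 7.65, 14.5 and 14.7 CPM in stage II, so the levels of genes with near-identical copies are uncertain here.

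No cell cycle gene was called in all 18 libraries, where 2.97% of all tested genes were called. In lists of 28 genes this is close to that share. The 28 tested G2/M genes had a median log2 fold change of -0.71 and all 28 were below 0. The 28 genes of DNA replication had a median of -0.32 and 23 of them were below 0. At an unadjusted p under 0.05 the lists held 2 and 6 genes, and DESeq2 called 0 and 1. With the block 3 G2/M genes and 1 replication gene were called lower, against 2.39% of all tested genes. In the 9 WT libraries no G2/M gene and 2 replication genes were called lower, and with the block there 10 and 9, with 1 replication gene higher. Of all tested genes 4.69% were called lower in the 9 WT libraries, and 9.42% with the block there. Within replicate pairs the G2/M median was -0.33, -0.91 and -0.63 for replicates 1, 2 and 3. Mki67, the proliferation antigen Ki-67, had 11.9, 15.9 and 11 CPM in stage III against 5.8, 25.2 and 18.5 CPM in stage II, so that stage III was higher in replicate 1 and lower in replicates 2 and 3 (adjusted p = 0.971). Myc, a driver of growth, had 132, 260.2 and 267 CPM in stage III against 93.6, 248 and 245 CPM in stage II (log2 0.17 ± 0.44, adjusted p = 0.988). The 33 cytosolic ribosomal protein genes had a median log2 fold change of -0.21 with none called, and pair medians of 0.00, -0.30 and -0.31. The 26 ribosome biogenesis genes had a median of -0.20, and the 7 tested mitochondrially encoded transcripts a median of -0.25, with none called in either. At an unadjusted p under 0.05 these 3 lists held no gene in all 18 libraries, and DESeq2 called none. In the 9 WT libraries 4 ribosomal protein genes were called lower. With the block there, 10 ribosomal protein genes, 8 ribosome biogenesis genes and 1 mitochondrially encoded transcript were called lower and none higher. These counts stand beside the 9.42% of all tested genes called lower in that fit.

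**Figure D3:**
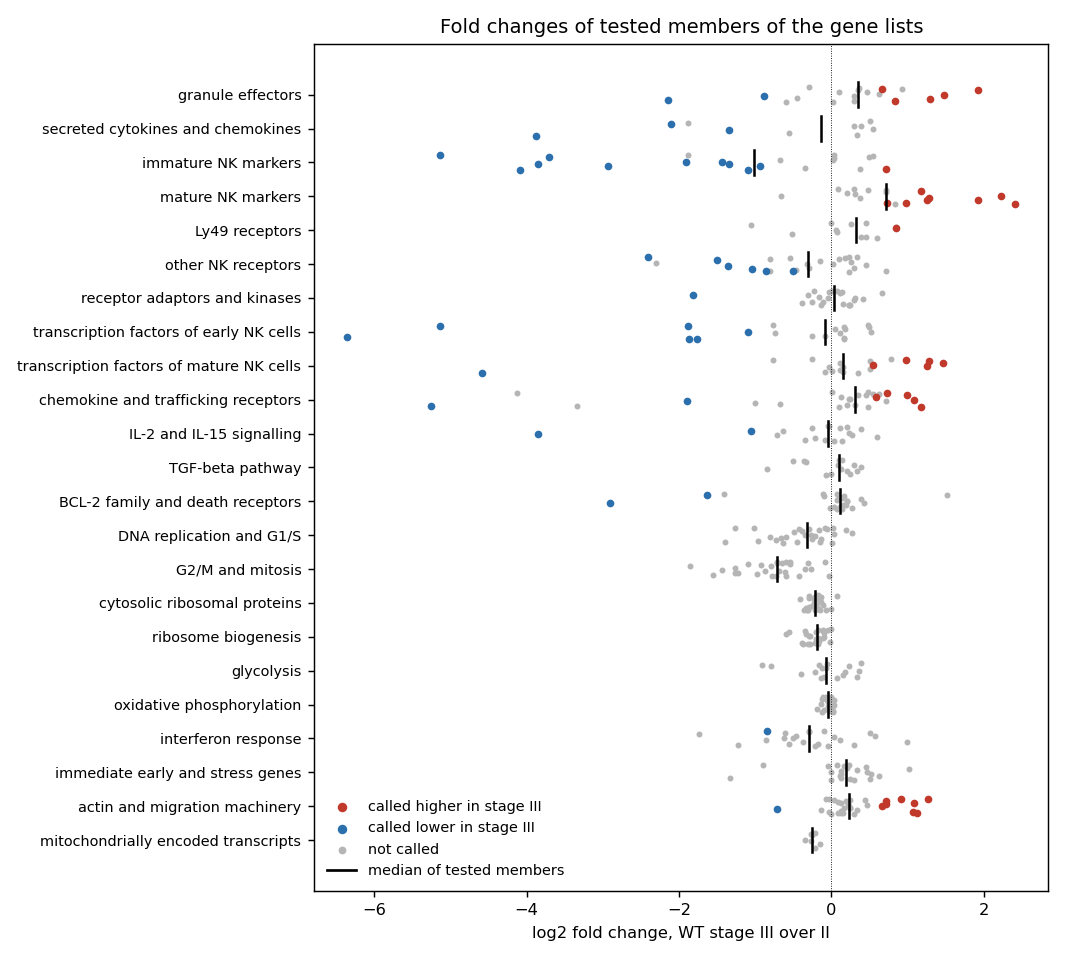
Log2 fold change of WT stage III over stage II (horizontal axis) of the tested members of 23 gene lists (rows), with called members in red (higher) or blue (lower), others in grey and the median as a black line. The medians of the mature NK marker list (0.72) and of the immature list (-1.01) lie on opposite sides of 0, and the housekeeping lists gather near 0.

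ILC1 markers and several T and B cell markers were lower in stage III. All 13 ILC1 markers were called lower in stage III, against 1.98% of all tested genes, and all 13 were also called lower without stage II replicate 1. The list was chosen with earlier results of these data known, so its full count is no separate check. Their summed level was 116.7 to 134.9 CPM in stage III against 947.7 to 1404 CPM in stage II, and none was at 0 in all libraries of a stage. Tmem176b, an ion channel protein of ILC and dendritic cells, had 8.96, 8.59 and 9.78 CPM in stage III against 163, 128 and 128 CPM in stage II (15.3-fold lower, log2 -3.94 ± 0.20, adjusted p = 3.64e-09). Its neighbour Tmem176a had 3.92, 4.24 and 3.65 CPM in stage III against 80.6, 57.3 and 56.9 CPM in stage II (log2 -4.04 ± 0.30). The list also holds Cxcr6, Zfp683, Il7r, Tnfsf10, Ikzf2, Cd200r1, Rora and Itga1, whose falls are given above, and these 8 stand on other lists too, so that their falls are not separate observations. The part of ILC1 in the changes of the other genes was not tested.

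Of 10 tested T cell markers 5 were called lower and none higher. Cd3d had 14.1, 11.9 and 10 CPM in stage III against 125, 137 and 118 CPM in stage II (log2 -3.40 ± 0.25, adjusted p = 3.05e-07). Cd3g had 12.8, 16.6 and 11.3 CPM in stage III against 100.1, 129.9 and 107 CPM in stage II (log2 -3.05 ± 0.29, adjusted p = 5.60e-06). Trbc2, a constant segment of the T cell receptor beta chain, had 118, 134 and 118 CPM in stage III against 203, 233 and 224 CPM in stage II (log2 -0.84 ± 0.18, adjusted p = 0.0145), and it was not called when any library other than stage II replicate 1 was left out (adjusted p 0.0678 to 0.134). The list summed to 520 to 583.6 CPM in stage III against 908.2 to 1112 CPM in stage II. Transcripts of the coreceptors Cd4 and Cd8a were close to 0 in both stages. Cd4 had 0.0446, 0.0359 and 0 CPM in stage III against 0.589, 0 and 0 CPM in stage II, and Cd8a had 0.0446, 0 and 0 CPM in stage III against 0.272, 0 and 0.225 CPM in stage II. Trac, the constant segment of the alpha chain, had 6.42, 8.09 and 7.63 CPM in stage III against 7.56, 23.1 and 19.4 CPM in stage II. The fifth called marker was the kinase gene Camk4, with a log2 fold change of -3.16 ± 0.31. The part of T cells in these values was not tested.

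Of 12 tested B cell markers 6 were called lower and none higher, of which 4 were Cd74 and the MHC class II genes H2-Aa, H2-Ab1 and H2-Eb1, which present antigen. Cd74, the invariant chain, had 15, 30.4 and 31.7 CPM in stage III against 471, 551 and 393 CPM in stage II (log2 -4.20 ± 0.61, adjusted p = 5.37e-04). The 4 genes summed to 21.4, 43.2 and 46.9 CPM in stage III against 586, 679.6 and 499.6 CPM in stage II. Replicate 1 of stage III was lowest by this sum. Cd22, an inhibitory receptor of B cells, had 3.48, 4.56 and 3.38 CPM in stage III against 54.8, 51.8 and 60.8 CPM in stage II (log2 -3.87 ± 0.44, adjusted p = 4.37e-05). Pax5, a factor that defines B cells, was at 0 in every stage III library, against 0.181, 0 and 0 CPM in stage II. Cd79a had 0.401, 0.359 and 1.39 CPM in stage III against 0.272, 0.765 and 0.991 CPM in stage II and was not called. The whole list summed to 726.4 to 795.8 CPM in stage III against 1497 to 1692 CPM in stage II, with Pax5 at 0 in all of stage III. In stage III the genes whose levels are given above make up little of that sum. H2-Ab1 was not called without stage III replicate 1, stage III replicate 2 or stage III replicate 3 (adjusted p 0.0647 to 0.08), and H2-Eb1 was not called without stage III replicate 2 (adjusted p 0.0541). The sixth, Cd79b, a chain of the B cell receptor complex, had a log2 fold change of -1.26 ± 0.26 and was not called without stage III replicate 2 or stage III replicate 3 (adjusted p 0.0678 to 0.101). The part of B cells in these values was not tested.

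Markers of NK cells were present in every library of both stages. Of 10 NK markers 2 were called higher, Gzma and Prf1, and the list summed to 23696 to 25372 CPM in stage III against 15582 to 18046 CPM in stage II. Gzma alone averaged 9335 CPM in stage III against 3346 CPM in stage II, so most of the rise of the sum lies in this effector gene. The median log2 fold change of the list was 0.29. Klrb1c, the antigen NK1.1, had 2684, 2592 and 2505 CPM in stage III against 2212, 2283 and 2118 CPM in stage II and was not called. Myeloid markers summed to 27.2 to 32.7 CPM in stage III against 25.4 to 37.9 CPM in stage II, with none of 10 tested called. Erythroid and platelet markers summed to 5.26 to 7.83 CPM in stage III against 4.78 to 6.8 CPM in stage II. Plasma cell markers summed to 64.5 to 70.1 CPM in stage III against 60.6 to 67.6 CPM in stage II. Markers of ILC2 and ILC3 summed to 379.8 to 416.4 CPM in stage III against 236.5 to 257.8 CPM in stage II. Of their 6 tested members only Klrg1 was called, which NK cells also express. Klrg1 averaged 183.4 CPM in stage III against 39.3 CPM in stage II, so most of the rise of the sum lies in it. The median log2 fold change of the 6 was -1.23, with 2 above 0 and 4 below. Il13, Il22, Il17a and Il23r were at 0 in every stage III library.

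**Figure D4:**
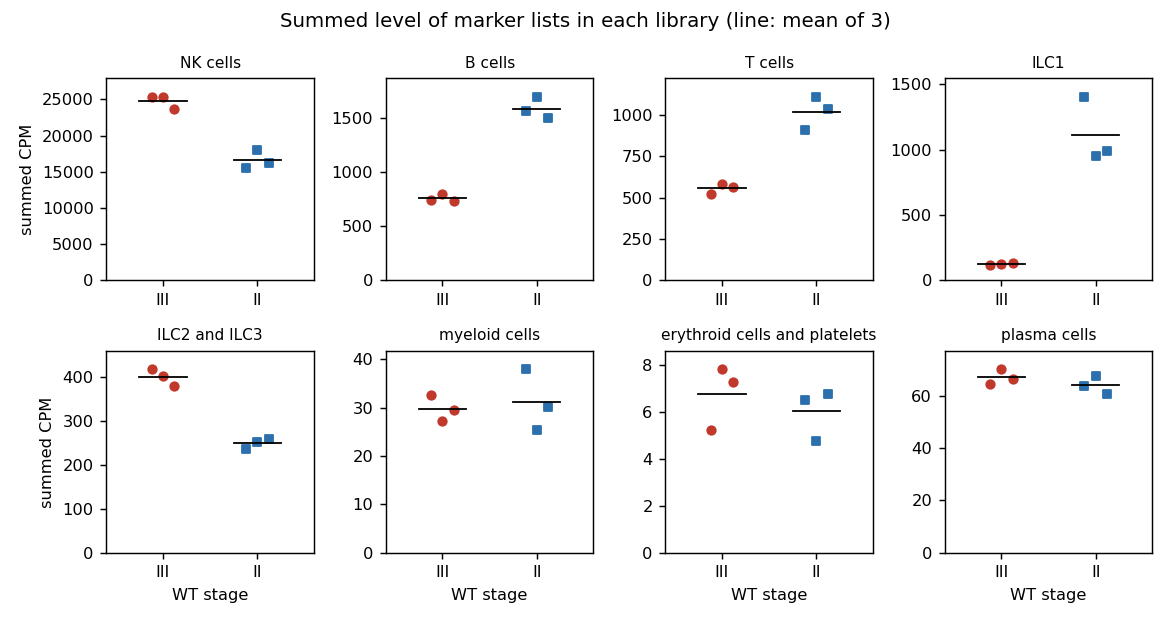
Summed CPM (vertical axis, from 0) of 8 marker lists in each WT library of stage III (red circles) and stage II (blue squares), with the mean of 3 as a line. The ILC1 sum is 116.7 to 134.9 CPM in stage III against 947.7 to 1404 CPM in stage II, while the sums of the myeloid list overlap.

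Whether this step differs from the next was tested as the step from II to III minus the step from III to IV, on the log2 scale, in the same model. Of 14156 genes 74 were called (0.523%), 39 with a positive and 35 with a negative difference. Among the 140 genes higher in stage III, 10 were called and all 10 differences were positive. Among the 280 genes lower in stage III, 34 were called, 31 with a negative and 3 with a positive difference. Both steps use the stage III libraries, so a chance deviation there moves the 2 steps in opposite directions. The higher and lower genes were picked by the stage III and II values that also enter the difference. The split of signs is therefore largely set by that choice and is no separate result. With the 9 WT libraries alone 216 genes were called, and with the block as well 802. Without 1 of the 6 libraries of stages III and II there were 26 to 58 calls: 29, 26 and 31 without stage III replicates 1, 2 and 3, and 54, 58 and 45 without stage II replicates 1, 2 and 3.

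Ccr2 and S1pr1 were highest at stage III. Ccr2 had 868, 1018 and 945 CPM in stage II, 1471, 1404 and 1365 CPM in stage III and 311, 353 and 368 CPM in stage IV, with a difference of steps of 2.62 ± 0.19 (adjusted p = 2.26e-06). S1pr1 had 69, 103 and 98.6 CPM in stage II, 189, 189 and 199.7 CPM in stage III and 87.6, 97.8 and 90.8 CPM in stage IV (difference 2.15 ± 0.32, adjusted p = 0.00269). S1pr5 had 51.2, 47.3 and 53.3 CPM in stage II, 115, 109.9 and 119.6 CPM in stage III and 289.8, 280.0 and 241 CPM in stage IV (difference -0.05 ± 0.23, adjusted p = 1). Cym, chymosin, a protease of the stomach of young mammals, had its lowest level at stage III, with 68.2, 59.6 and 83.7 CPM in stage II, 24.3, 31.5 and 38.7 CPM in stage III and 105, 135 and 172 CPM in stage IV (difference -3.29 ± 0.43, adjusted p = 7.14e-04). Its fall to stage III, of log2 -1.17 ± 0.23, was not called without stage II replicate 3, stage III replicate 1 or stage III replicate 2 (adjusted p 0.0641 to 0.0813).

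Other genes fell before stage III and were similarly low at stage IV. Tcrg-C4 had 203, 154 and 148 CPM in stage II, 3.7, 2.87 and 2.52 CPM in stage III and 2.3, 2.92 and 2.84 CPM in stage IV (difference -5.63 ± 0.48, adjusted p = 1.53e-05). Tmem176b had 163, 128 and 128 CPM in stage II, 8.96, 8.59 and 9.78 CPM in stage III and 5.46, 7.71 and 6.63 CPM in stage IV (difference -3.47 ± 0.34, adjusted p = 3.95e-05). Id3 had 75.9, 61.8 and 54.1 CPM in stage II, 2.01, 1.8 and 1.65 CPM in stage III and 1.19, 1.83 and 1.79 CPM in stage IV (difference -4.96 ± 0.54, adjusted p = 1.16e-04). All 3 were low in both later stages. St6galnac3, a sialyltransferase, had 12.3, 10.4 and 12.2 CPM in stage II, 1.69, 1.11 and 1.2 CPM in stage III and 1.68, 2.71 and 2.29 CPM in stage IV (difference -3.86 ± 0.42, adjusted p = 1.16e-04).

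For 3 genes the fall at the next step was the larger. Slco3a1, an organic anion transporter, had 20.5, 22 and 17.9 CPM in stage II, 9.41, 11.2 and 11.9 CPM in stage III and 0.821, 1.21 and 1.05 CPM in stage IV (difference 2.50 ± 0.27, adjusted p = 1.16e-04). Tcf7 had 497, 589 and 587 CPM in stage II, 251, 273 and 265 CPM in stage III and 39.2, 39.1 and 57.7 CPM in stage IV (difference 1.45 ± 0.31, adjusted p = 0.0403). Emb, embigin, a partner of monocarboxylate transporters, had 349.5, 430.4 and 417 CPM in stage II, 183, 235 and 207 CPM in stage III and 8.95, 15.1 and 16.5 CPM in stage IV (difference 3.00 ± 0.39, adjusted p = 7.14e-04), and its lower value in stage III (adjusted p = 0.0361) was not called when any 1 of the 6 libraries was left out (adjusted p 0.0545 to 0.236). These were the 3 lower genes with a positive difference that passed the test. For Gzmb and Zeb2 the difference of steps was not called. Gzmb had 229.9, 330.4 and 359.9 CPM in stage II, 982, 1233 and 1304 CPM in stage III and 1908, 3156 and 2922 CPM in stage IV (difference 0.75 ± 0.43, adjusted p = 1). Zeb2 had 57.1, 63.5 and 82.7 CPM in stage II, 155, 157 and 176 CPM in stage III and 475, 451 and 383 CPM in stage IV (difference -0.16 ± 0.44, adjusted p = 1).

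**Figure D5:**
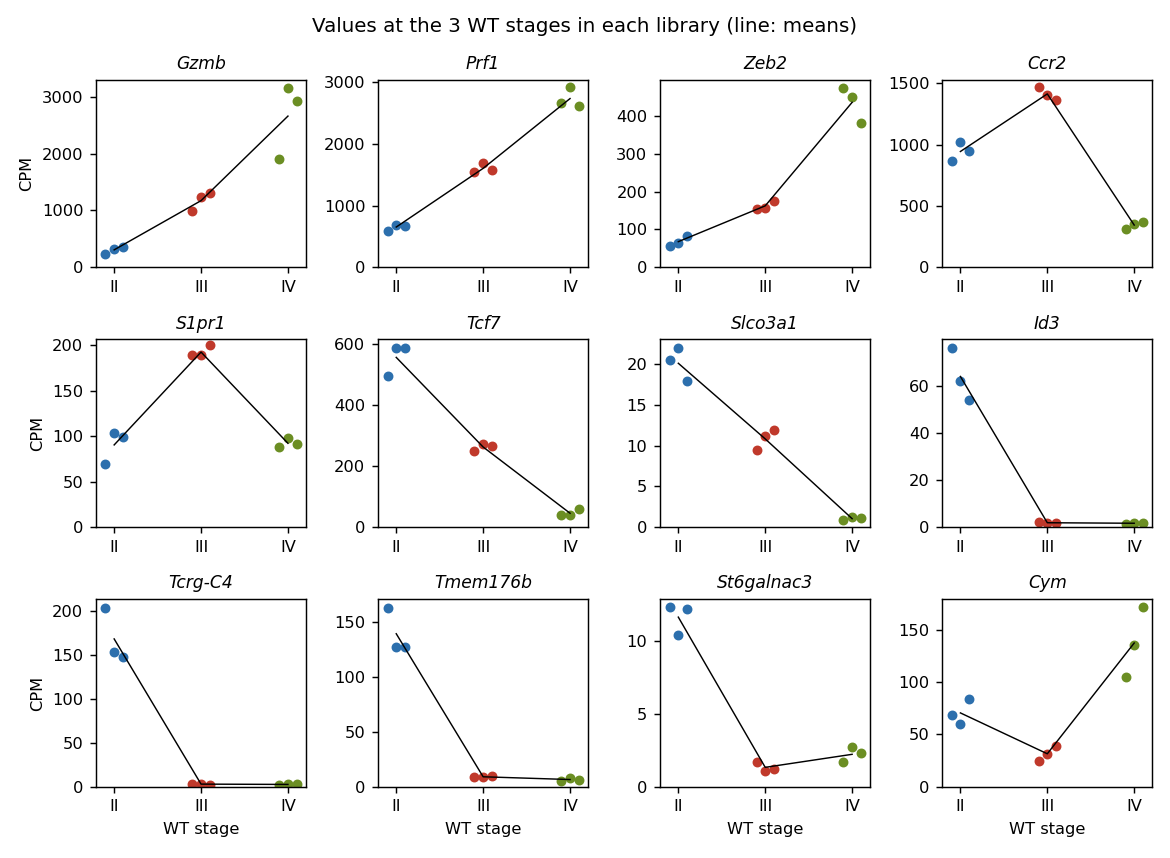
Scaled CPM (vertical axes, from 0) of 12 genes at WT stages II, III and IV (horizontal axes), one point for each library, with lines joining the means. Ccr2 and S1pr1 are highest at stage III, Id3, Tcrg-C4 and Tmem176b drop before stage III, and Gzmb, Prf1 and Zeb2 climb at both steps.

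The step was also set against the same step in KO cells, from Eomesfl/fl mice given tamoxifen, as the difference of the log2 changes, WT minus KO. Of 14156 genes 7 were called (0.0494%), and 6 of these were also called in the WT step. The WT step enters the difference, so this overlap is no separate result. At an unadjusted p under 0.05 there were 1749 genes. Eomes itself, with the WT levels given above, had 181, 152 and 173 CPM in KO stage III against 51.4, 71.1 and 57 CPM in KO stage II, so that each KO library was below every WT library of its stage. How much of the counted transcript lies in the deleted part is not known here. Entpd1 rose in WT cells and had 5.24, 8.35 and 11.3 CPM in KO stage III against 6.95, 8.52 and 8.36 CPM in KO stage II, so the KO stages overlapped (difference 2.68 ± 0.45, adjusted p = 0.0376). Id3 had 12.1, 6.82 and 6 CPM in KO stage III against 78.7, 42 and 63.9 CPM in KO stage II, a smaller fall than in WT cells (difference -2.25 ± 0.37, adjusted p = 0.0358). Cd3d had 26.5, 12.2 and 21.4 CPM in KO stage III against 45.3, 36.2 and 49.5 CPM in KO stage II, also a smaller fall (difference -2.27 ± 0.33, adjusted p = 0.0143). Capn3, a calcium-dependent protease known from muscle, had 5.98, 5.46 and 5.6 CPM in WT stage III against 28.8, 20.9 and 21.7 CPM in WT stage II, and 15.9, 7.08 and 9.84 CPM in KO stage III against 8.56, 5.44 and 9.71 CPM in KO stage II (difference -2.54 ± 0.39, adjusted p = 0.0225).

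For Cym and Gzmm the KO stages ran opposite to the WT stages. Cym had 33.7, 27 and 50.7 CPM in KO stage III against 11.4, 9.56 and 10.8 CPM in KO stage II (difference -2.97 ± 0.33, adjusted p = 0.00135). Gzmm had 68.5, 40 and 71.4 CPM in KO stage III against 17, 18.4 and 23.3 CPM in KO stage II (difference -2.51 ± 0.33, adjusted p = 0.00716). Both were higher in every KO stage III library than in any KO stage II library, and lower in every WT stage III library than in any WT stage II library. Slc27a6, a fatty acid transport protein and the one of the 7 that was not called in the WT step, had 6.29, 9.7 and 9.44 CPM in WT stage III against 17.8, 17.4 and 16.7 CPM in WT stage II, and 3.02, 4.89 and 1.85 CPM in KO stage III against 39.3, 29.6 and 38.2 CPM in KO stage II (difference 2.42 ± 0.40, adjusted p = 0.0358). KO stage III replicates 1 and 3 held few genes with a count, 14824 and 16536. Replicate 2 of KO stage III had the lowest quality weight by voom of all 18 libraries, 0.1557, against 0.1705 and 0.3238 for replicates 1 and 3. Its MHC class II sum was 305.5 CPM, against 59.4 and 109.4 CPM in those. Leaving out replicates 1 and 3 leaves only this 1 library of KO stage III, which is then assumed to vary like the other groups. In that fit 2 genes were called, of which Cym was 1 (adjusted p = 0.00997), and the other 6 genes named here had adjusted p-values of 0.117 to 0.128. Leaving out a WT library gave 2, 3, 2 and 2 calls without stage II replicate 2, stage II replicate 3, stage III replicate 2 and stage III replicate 3, and 6 and 5 without replicate 1 of stage II and of stage III.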

How the data were processed

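RNA-seq counts of sorted splenic NK cells were analysed for 18 libraries in 6 groups of 3. Per the submitters' processing notes, STAR 2.0.4 aligned the reads and featureCounts 1.4.5 of Subread counted them; genome build, read type and strand setting: not given in the sources used here. Overlapping and antisense genes therefore cannot be told apart. Each file holds, per the file headers, the authors' raw count per gene, CPM and RPKM. The deposited CPM equalled count over library total within a relative difference of 5e-15 and was not used further, and the deposited RPKM was not used. Symbols and positions came from GENCODE M21 (GRCm38), in which 40340 of 41388 IDs were found.

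Counts were normalised with edgeR's TMM factors, filtered by group with edgeR's filterByExpr and fitted with its quasi-likelihood model (edgeR 4.0.16, R 4.3.3), 1 mean per group over all 18 libraries. Contrasts were stage III minus stage II in WT, that step minus the step from III to IV, and that step minus the same step in KO. P-values were adjusted by the Benjamini-Hochberg method, with a threshold of 0.05. Standard errors are the log2 fold change over the root of its F statistic, an approximation, and fitted fold changes use a prior count of 0.125. Scripts were tested on simulated data. Total counts per library, given with the results, set the precision, and counting intervals at 95% cover counting error only.

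Named were the sort genes, the 12 highest and 12 lowest called fold changes with an average log2 CPM of at least 1 and no overlap of groups, the 6 most abundant called genes per direction, up to 4 called members per list and direction, the 6 genes with the smallest p in each test of a difference among genes called in the step, and 14 regulators and effectors called or not. Genes named outside this rule, among them Ifng, Il2rb, Nkg7, Cx3cr1, Klrb1c, Gapdh and the cell markers, were chosen after their values were seen. The comparison and the lists were chosen with earlier results of these data known. Same-numbered WT libraries of stages II and III deviated together from their group means (r of 0.286 to 0.485, against -0.384 to 0.186 for other numbers). For same-numbered WT pairs with stage IV, r was 0.131 to 0.448. Within KO it was -0.06 to 0.313 for the same number, and a KO pair of other numbers reached 0.33. Replicate numbers were taken to pair the libraries, which is less certain for KO. Alternatives were DESeq2 1.42.0, limma 3.58.1 voom with quality weights, other scaling, filters and sample sets, replicate blocks and leaving out libraries.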

Additional observations from a re-analysis of the deposited data

Results flagged for a closer look

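The step differed between WT and KO cells for 7 genes by the test of the difference itself (edgeR's quasi-likelihood test, adjusted p under 0.05), and these are listed because of that test. The log2 difference, WT step minus KO step, was -2.97 for Cym, -2.51 for Gzmm, -2.27 for Cd3d, -2.54 for Capn3, 2.42 for Slc27a6, -2.25 for Id3 and 2.68 for Entpd1. KO stage III replicates 1 and 3 had few genes with a count and the largest shares of counts in their 10 top genes among the libraries of these 4 groups, 17% and 20.6%. KO stage III replicate 2 had the lowest quality weight by voom of all 18 libraries, 0.1557. Without replicates 1 and 3, KO stage III has this 1 library, which is assumed to vary like the other groups. In that fit the difference was called for Cym (adjusted p = 0.00997) and not for the other 6, although every sign was kept, and its size was then -1.91 for Gzmm, -1.55 for Cd3d and 2.69 for Entpd1. Over 14 fits the adjusted p ran from 1.08e-23 to 0.0125 for Cym, which was called in all 14, and from 7.11e-15 to 0.117 for Gzmm, which was called in 13. Id3 was called in 6 of the 14. The part of the 2 libraries in these differences was not tested beyond leaving them out.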

How the results depend on the processing

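The count of 420 genes called between WT stage III and stage II, by edgeR's quasi-likelihood test, was 684 by DESeq2, 1830 by voom with quality weights, 734 with no filter on low counts (median of all genes -0.322 on the log2 scale), 174 when a fold of at least 1.5 was tested, and 909 without KO stage III replicates 1 and 3 (median of all genes -0.111). It was 1144 in the 9 WT libraries, 1014 in the 6 libraries, 2620 in the 6 with the replicate block and 2533 in the 9 with the replicate block. With replicates 2 and 3 alone it was 171. The last 2 were chosen after seeing the data. Leaving out 1 library gave 204 to 277. The share of higher among called genes was 33.3%, against 46.5% in the 9 WT libraries, 43.8% in the 6, 51.4% and 50.2% with their blocks, 13.2% for the fold test, 19.3% with replicates 2 and 3 alone and 23.1% without WT stage II replicate 1. The block by genotype and number gave 563 calls, of which 402 were among the 420.

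The 74 calls for the difference of steps became 171 by DESeq2, 205 with no filter, 216 in the 9 WT libraries, 802 there with the replicate block, 117 with the block by genotype and number, 551 by voom, 206 without the 2 KO libraries and 26 to 58 without 1 library. The 7 calls for WT minus KO became 115 by DESeq2, 12 at 1 CPM or more in 3 libraries, 290 with no filter, 12 with the block by genotype and number, 39 by voom, 2 without the 2 KO libraries and 2 to 6 without 1 library. Causes were not tested. Of 1700 values of named genes under other settings 1528 kept their direction and side of the threshold, 158 were no longer called, 12 became called and 2 reversed, both of genes not called. Mki67, at -0.35, was 0.12 without WT stage II replicate 2 and -0.76 to 0.12 over the leave-outs. Myc, at 0.17, was -0.17 without WT stage II replicate 1 and -0.17 to 0.45 over the leave-outs. All 79 named called genes were also called with the block by genotype and number. Of these 79, 57 kept the call in all 6 leave-outs. With 3 libraries a group, differences of small or variable genes are limited, and genes near 0 in stage III have imprecise fold changes.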
